A study of Mus musculus with 9 samples.

Results

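The Schlafen genes of the mouse lie side by side in 1 cluster on chromosome 11, and 8 of them were measured in macrophages exposed to 15d-PGJ2 or to 15d-PGJ2-PC. They are Slfn1, Slfn2, Slfn3, Slfn4, Slfn5, Slfn8, Slfn9 and the pseudogene Slfn10-ps, taken by symbol from the 18049 genes of the expression table. All 8 passed the filter on low values, among 11309 genes tested. The genes were picked with their measured levels in these same 9 libraries in view, so every level and fold change of a member in this text is a description. The study set 2 compounds against medium in bone marrow-derived macrophages of C57BL/6 mice aged 8 weeks, cultured in RPMI medium. The groups were 15d-PGJ2 at 1 µM (3 libraries), 15d-PGJ2-PC at 1 µM (3 libraries) and control cells in medium without compound (3 libraries), all collected after 6 h. 15d-PGJ2 is a cyclopentenone prostaglandin of the J series. What PC stands for is not stated, and no structure of 15d-PGJ2-PC is described. Whether the 3 libraries of a group came from separate cultures or animals is not stated either, so the tests measure only a library-to-library spread that could be technical. Expression is in FPKM, fragments scaled to gene length and library size, and in bulk RNA fewer cells of a type and less RNA per cell cannot be told apart.

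Schlafen proteins, named after the German word for sleeping, are known as interferon-induced regulators of cell growth, and several of them act on tRNA or on other RNA. Mouse members are grouped by size into short proteins (Slfn1 and Slfn2), intermediate proteins (Slfn3 and Slfn4) and long proteins (Slfn5, Slfn8 and Slfn9), the last with a helicase-like domain at the end of the chain. In macrophages the family is known for induction by type I interferon and by ligands of Toll-like receptors. Type I interferon acts through a receptor that activates the kinases Jak1 and Tyk2, and transcription factors that include Stat2 and Irf9 then bind a DNA element called ISRE.

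The promoters of the 3 long genes are shown because each holds the core of that element, a pair of GAAA words with any 2 bases between them, on one strand or the other. They run from 250 bases before to 50 bases after the RefSeq start site on build GRCm38.p6, and capitals mark the core or its reverse complement. The Slfn5 promoter is at chr11:82951852-82952151 on the plus strand, the Slfn8 promoter at chr11:83020761-83021060 on the minus strand and the Slfn9 promoter at chr11:82991781-82992080 on the minus strand.
Slfn5: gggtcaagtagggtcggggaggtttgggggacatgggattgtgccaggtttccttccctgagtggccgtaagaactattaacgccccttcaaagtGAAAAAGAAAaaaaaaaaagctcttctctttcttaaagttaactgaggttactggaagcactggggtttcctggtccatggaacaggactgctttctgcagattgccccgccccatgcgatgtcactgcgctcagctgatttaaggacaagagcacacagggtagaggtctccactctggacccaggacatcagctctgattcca
Slfn8: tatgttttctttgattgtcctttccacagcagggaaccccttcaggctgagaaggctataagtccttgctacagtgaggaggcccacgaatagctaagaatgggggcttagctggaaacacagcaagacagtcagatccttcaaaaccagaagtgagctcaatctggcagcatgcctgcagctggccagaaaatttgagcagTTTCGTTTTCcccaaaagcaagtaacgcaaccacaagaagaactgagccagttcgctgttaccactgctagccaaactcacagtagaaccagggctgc
Slfn9: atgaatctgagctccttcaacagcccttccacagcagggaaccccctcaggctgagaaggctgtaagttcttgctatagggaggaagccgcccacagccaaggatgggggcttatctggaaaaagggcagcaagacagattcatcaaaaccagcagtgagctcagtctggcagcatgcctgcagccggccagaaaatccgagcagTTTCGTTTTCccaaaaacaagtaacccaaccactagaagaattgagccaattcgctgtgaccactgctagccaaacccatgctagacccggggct
The core begins at position -155 in Slfn5, at -48 in Slfn8 and at -45 in Slfn9, counted from the start site. RefSeq lists another start of Slfn8, whose window holds the same core at -136. The Slfn8 and Slfn9 promoters were identical at 248 of 292 aligned bases (84.9%), so their matches are not independent of each other. Of the 8 members, 7 had a promoter in the RefSeq table, and the core occurred in these 3. It occurred in 3.44% of all 32851 promoters of 300 bases. Counted by gene, with any promoter of the gene, it occurred in 3.99% of 27025 genes. On a list of type I interferon-induced genes, 13 of 27 genes with a promoter had it.

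The promoters of the short and intermediate genes are shown for a word they have in common. Windows of 30 bases carry ACTTCCT in capitals, the reverse complement of AGGAAGT, a word bound by ETS factors such as PU.1, a factor of the myeloid lineage. All are on the plus strand, at chr11:83116735-83116764 for Slfn1, chr11:83065046-83065075 for Slfn2, chr11:83191277-83191306 for Slfn3 and chr11:83175102-83175131 for Slfn4.
Slfn1: agatgtctcacACTTCCTggagtgacatca
Slfn2: gcagggctttcACTTCCTggagggtgacag
Slfn3: tggatgacagaACTTCCTgggggagggact
Slfn4: cttccggttatACTTCCTggagtgacgaaa
AGGAAGT in either orientation was found in these 4 promoters and not in those of Slfn5, Slfn8 and Slfn9, and in 9.35% of all promoters. The bases after the word are alike in Slfn1, Slfn2 and Slfn4, so these matches may not be independent of each other. On the list of type I interferon-induced genes, 5 of 27 genes with a promoter had AGGAAGT. The GAS word TTCNNNGAA, known from genes induced by interferon gamma, was in none of the 7 promoters and in 8.30% of all. The AP-1 word TGANTCA was found in Slfn4 (7.81% of all promoters), and TGACNNNGC, the core of the antioxidant element bound by Nrf2, in Slfn3 and Slfn5 (12.4% of all). The NF-kB word, GGGA and TTTCC with any base between them, was in none of the 7 and in 0.411% of all. Counted by gene, the shares were 10.7% for AGGAAGT, 9.55% for the GAS word, 8.97% for the AP-1 word, 14.0% for TGACNNNGC and 0.466% for the NF-kB word. Both strands were searched for each word. A match describes the letters in this window and nothing about binding.

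Slfn2, the most abundant member and a gene known to keep T cells in quiescence and to protect tRNA from cleavage, was lower with both compounds. Its level was 112.34, 121.28 and 118.23 FPKM in the 15d-PGJ2 libraries, 207.05, 204.1 and 213.99 FPKM in the 15d-PGJ2-PC libraries and 293.68, 283.34 and 302.85 FPKM in the control libraries. The 3 groups did not overlap, and libraries of a group lay close together. Slfn2 averaged 40.0% of the control level with 15d-PGJ2 and 71.0% with 15d-PGJ2-PC. On the log2(FPKM + 1) scale used for every fold change here, the difference from control was -1.32 (SE 0.04) with 15d-PGJ2 and -0.49 (SE 0.04) with 15d-PGJ2-PC. Slfn2 (Entrez 20556, chromosome 11, 83065112 to 83070678) ranked 588 by level among the 18049 genes in 15d-PGJ2 libraries, 323 in 15d-PGJ2-PC libraries and 230 in control libraries.

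Slfn1, the other short gene, founded the family as a gene that halts T cell growth when overexpressed. Its level was 1.44, 0.68 and 2.35 FPKM with 15d-PGJ2, 3.89, 3.7 and 5.27 FPKM with 15d-PGJ2-PC and 9.4, 11.34 and 15.16 FPKM in control cells. Again no library of one group reached into another, but the spread within groups was wide: these values rest on about 7 to 24 reads with 15d-PGJ2, 38 to 53 with 15d-PGJ2-PC and 96 to 153 in controls, as estimated from the steps between low values. Slfn1 averaged 12.5% of control with 15d-PGJ2 and 35.8% with 15d-PGJ2-PC. The log2 differences from control were -2.41 (SE 0.24) and -1.28 (SE 0.24). The gene (Entrez 20555) spans bases 83116820 to 83122670.

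The intermediate genes Slfn3 and Slfn4 differed less between groups. Slfn3, a gene linked to T cell growth arrest, had 10.5, 9.46 and 9.93 FPKM with 15d-PGJ2, 12.38, 9.49 and 12.03 FPKM with 15d-PGJ2-PC and 13.35, 14.15 and 15.41 FPKM in control cells. The control libraries lay above all 6 treated libraries, while the second 15d-PGJ2-PC library fell among the 15d-PGJ2 libraries. The log2 difference from control was -0.48 (SE 0.10) with 15d-PGJ2 and -0.32 (SE 0.10) with 15d-PGJ2-PC. The 15d-PGJ2-PC value passed the threshold narrowly, with a limma Benjamini-Hochberg adjusted p of 0.0316 over all genes tested. Without the second 15d-PGJ2-PC library Slfn3 stood at -0.21, adjusted p = 0.0939. The call was also lost without control library 2 or 3 (adjusted p of 0.0710 and 0.105), without the filter on low values (0.0602) and with the 15d-PGJ2 libraries left out of the fit (0.0537), and over all alternatives the adjusted p ran between 0.0233 and 0.105.

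Slfn4, a myeloid gene known to be induced by interferon and Toll-like receptor ligands, had 3.5, 3.3 and 4.16 FPKM with 15d-PGJ2, 3.85, 5.63 and 4.05 FPKM with 15d-PGJ2-PC and 5.96, 5.82 and 8.65 FPKM in control cells. All 6 treated libraries lay under the lowest control library, and the 2 treated groups overlapped. The log2 difference from control was -0.73 (SE 0.16) with 15d-PGJ2 and -0.50 (SE 0.16) with 15d-PGJ2-PC. The 15d-PGJ2-PC value had an adjusted p of 0.0409 in limma, and it lost the call in 7 of the 18 alternatives. Adjusted p was 0.0910 without the filter, 0.0571 without the intensity trend and 0.0627 with the 6 libraries of the contrast alone. It was 0.0525 without 15d-PGJ2 library 1, 0.128 without 15d-PGJ2-PC library 1, 0.121 without 15d-PGJ2-PC library 3 and 0.138 without control library 3, in a range of 0.0170 to 0.138. Slfn3 (Entrez 20557, bases 83191330 to 83215154) and Slfn4 (Entrez 20558, bases 83175172 to 83190216) are near copies, with 95.3% identity over 1521 aligned coding bases. Of the 50-base words of their transcripts, 14.3% in Slfn3 and 8.25% in Slfn4 occur in another family transcript, so the split of reads between the pair is uncertain. Slfn4 also shares 69 of its 3963 words with Slfn2, which had far more reads. Slfn2 had about 1019 to 1082 reads with 15d-PGJ2 and 2588 to 2731 in controls, beside 68 to 87 and 122 to 180 for Slfn4. How many reads of Slfn2 were counted for Slfn4 was not tested, so the Slfn4 differences carry that doubt.

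**Figure D1:**
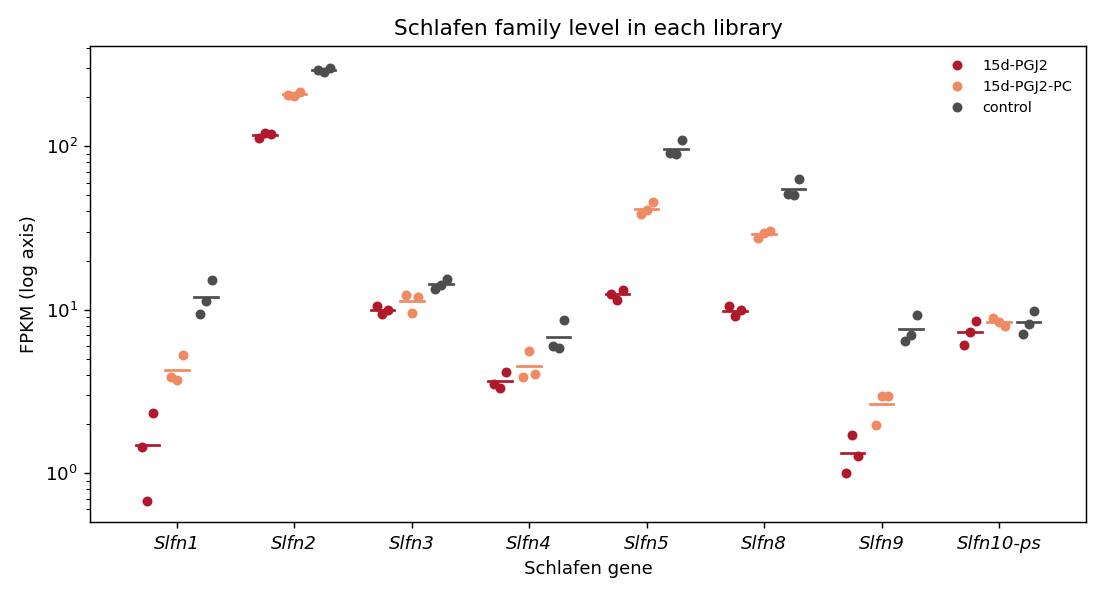
Level of each Schlafen gene in FPKM (log axis) in the 3 libraries of 15d-PGJ2, 15d-PGJ2-PC and control, 1 point per library and a short line at the group mean. Slfn1, Slfn2, Slfn5, Slfn8 and Slfn9 are ordered 15d-PGJ2 below 15d-PGJ2-PC below control in every library, and the 3 groups overlap in Slfn10-ps.

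Slfn5 and Slfn1 had the lowest levels relative to control with 15d-PGJ2. Slfn5 had the larger log2(FPKM + 1) difference, whereas with a pseudocount of 0.1 Slfn1 stood at -3.05 and Slfn5 at -2.95. Human SLFN5 is known to repress interferon-induced genes. The level of mouse Slfn5 was 12.46, 11.5 and 13.23 FPKM with 15d-PGJ2, 38.25, 40.61 and 45.74 FPKM with 15d-PGJ2-PC and 91.05, 89.97 and 109.4 FPKM in control cells. The groups stood far apart, with the highest 15d-PGJ2 library at 13.23 FPKM, under the lowest 15d-PGJ2-PC library at 38.25 FPKM. Slfn5 averaged 12.8% of control with 15d-PGJ2, a log2 difference of -2.86 (SE 0.09), and 42.9% with 15d-PGJ2-PC, a log2 difference of -1.20 (SE 0.09). Its rank by level was 5187 of 18049 genes with 15d-PGJ2, 1880 with 15d-PGJ2-PC and 764 in control cells. The gene (Entrez 327978, plus strand) spans bases 82951349 to 82964850.

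Slfn8, another long member, followed the same order. It had 10.49, 9.11 and 9.95 FPKM with 15d-PGJ2, 27.43, 29.48 and 30.13 FPKM with 15d-PGJ2-PC and 51.25, 50.22 and 63.18 FPKM in control cells, with no overlap between groups. Slfn8 averaged 17.9% of control with 15d-PGJ2 and 52.9% with 15d-PGJ2-PC, log2 differences of -2.36 (SE 0.09) and -0.89 (SE 0.09). Slfn9, the neighbouring long gene, was the lowest of the long members. It had 1, 1.71 and 1.28 FPKM with 15d-PGJ2, 1.97, 2.97 and 2.96 FPKM with 15d-PGJ2-PC and 6.42, 7.01 and 9.34 FPKM in control cells. The groups did not overlap here either, although 15d-PGJ2 library 2 and 15d-PGJ2-PC library 1 were close, at about 31 to 53 reads per 15d-PGJ2 library and 62 to 93 per 15d-PGJ2-PC library. Slfn9 averaged 17.5% of control with 15d-PGJ2 and 34.7% with 15d-PGJ2-PC, log2 differences of -1.88 (SE 0.17) and -1.24 (SE 0.17). Slfn8 (Entrez 276950, bases 83002125 to 83020810) and Slfn9 (Entrez 237886, bases 82974316 to 82991830) have 910 codons each and 92.7% identity over 2730 aligned coding bases. Of their 50-base words, 14.2% in Slfn8 and 11.2% in Slfn9 occur in other family transcripts. Slfn8 shares 8.80% with Slfn9 and 10.4% with Slfn10-ps, and Slfn9 shares 6.24% with Slfn8 and 8.44% with Slfn10-ps. The split of reads among Slfn8, Slfn9 and Slfn10-ps is therefore uncertain.

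The pseudogene Slfn10-ps (Entrez 237887, bases 83028123 to 83040533) did not pass the test in any comparison. It had 6.1, 7.26 and 8.59 FPKM with 15d-PGJ2, 8.84, 8.4 and 7.9 FPKM with 15d-PGJ2-PC and 7.09, 8.14 and 9.86 FPKM in control cells. All 3 groups overlapped. The log2 difference was -0.17 with 15d-PGJ2 (95% interval -0.46 to 0.11) and 0.01 with 15d-PGJ2-PC (95% interval -0.27 to 0.30) against control, so changes within these bounds remain possible. It lies next to Slfn8 on the minus strand and shares 19.7% of its 50-base words with other family transcripts. The shares are 11.8% with Slfn8 and 13.5% with Slfn9. Slfn8 had about 173 to 203 reads with 15d-PGJ2 and 978 to 1215 in controls, beside 120 to 169 and 141 to 194 for Slfn10-ps. How many reads of Slfn8 or Slfn9 were counted for Slfn10-ps was not tested, so the Slfn10-ps values carry that doubt.

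An antisense gene of Slfn5 that the rule did not include, Slfn5os (Entrez 76392, bases 82942341 to 82960681, minus strand), overlaps 77 exon bases of Slfn5. It was listed at 0 in each 15d-PGJ2 library, at 1.65, 1.65 and 2.65 FPKM in the 15d-PGJ2-PC libraries and at 5.55, 5.26 and 4.95 FPKM in the control libraries. The 3 groups did not overlap here either, on few reads: about 5 to 8 with 15d-PGJ2-PC and 15 to 17 in controls, where 3 reads are worth 0.959 to 0.975 FPKM in the 15d-PGJ2 libraries. Whether counting used the strand is not given in the sources used here, so reads within that overlap cannot be assigned to Slfn5 or Slfn5os. The overlap is 77 of the 574 exon bases of Slfn5os, and 29 of its 525 words of 50 bases (5.52%) also occur in Slfn5.

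Of the 8 members, 7 were lower with 15d-PGJ2 than in control cells at an adjusted p under 0.05, where 25.0% of all genes tested were lower. In the same 7, all 3 libraries with 15d-PGJ2 lay below all 3 control libraries, as in 28.8% of all genes. The same 7 members were lower with 15d-PGJ2-PC than in control cells, where 14.1% of all genes were lower and 21.3% had groups apart in that direction. Slfn10-ps was the remaining member both times. Nothing is read from these counts, since the members were chosen on these contrasts. The median log2 difference over the 8 members was -1.60 with 15d-PGJ2 and -0.69 with 15d-PGJ2-PC, beside -0.02 and 0.00 over all genes tested. The 2 comparisons share their 3 control libraries.

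**Figure D2:**
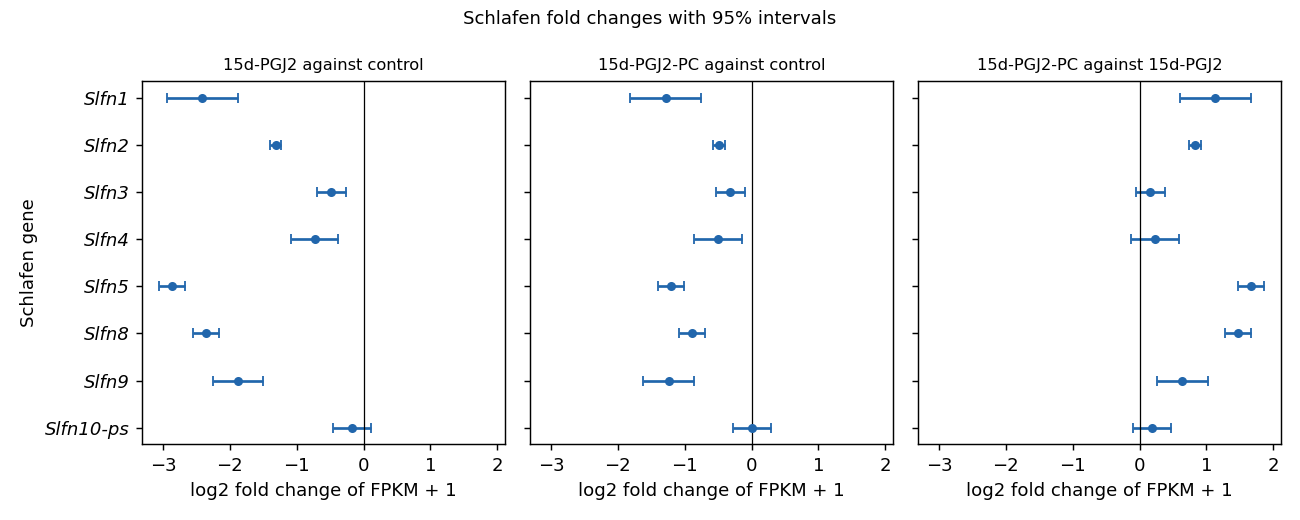
Log2 difference of each Schlafen gene on the log2(FPKM + 1) scale with its 95% interval, with 1 panel for each of the 3 comparisons. Values against control run down to -2.86 for Slfn5 with 15d-PGJ2, and those of Slfn10-ps stay near 0.

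The 2 compounds were compared with each other at the same dose and time. Of the 8 members, 5 were higher with 15d-PGJ2-PC than with 15d-PGJ2 (Slfn1, Slfn2, Slfn5, Slfn8 and Slfn9), where 12.3% of all genes tested were higher, and in the same 5 the groups did not overlap, as in 20.5% of all genes. Slfn5 was 3.35 times as high with 15d-PGJ2-PC as with 15d-PGJ2, a log2 difference of 1.66 (95% interval 1.47 to 1.86). Slfn8 was 2.95 times as high (log2 1.47, 95% interval 1.27 to 1.66), Slfn1 2.88 times (log2 1.13, 0.60 to 1.66) and Slfn2 1.78 times (log2 0.82, 0.74 to 0.91). Slfn9 was 1.98 times as high, with a log2 value of 0.64 (95% interval 0.26 to 1.02) on the log2(FPKM + 1) scale, 0.94 with a pseudocount of 0.1, and an adjusted p of 0.0230 in limma. Adjusted p of Slfn9 rose past the threshold without 15d-PGJ2 library 1 (0.0758) or 3 (0.0613), without 15d-PGJ2-PC library 2 (0.0808) or 3 (0.0758) and without the filter (0.0612), in a range of 0.0102 to 0.0808 over the alternatives.

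For the other members the difference between the compounds did not pass the test. The log2 interval was -0.06 to 0.38 for Slfn3, -0.12 to 0.59 for Slfn4 and -0.10 to 0.47 for Slfn10-ps, so higher levels with 15d-PGJ2-PC within these bounds remain possible. The median over the 8 members was 0.73, beside 0.02 over all genes. In 5 of 8 members every 15d-PGJ2 library lay below every 15d-PGJ2-PC library and every 15d-PGJ2-PC library below every control library, an order seen in 11.0% of all genes tested (1244 of 11309). Gene lists described below had this order too, in 34 of 38 interferon-induced genes, 16 of 21 interferon receptor and signalling genes and 10 of 10 macrophage markers. It held in 5 of 22 cell cycle genes and 0 of 8 tRNA genes.

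Summed over the 8 members, Schlafen expression was 157.83, 164.3 and 167.72 FPKM with 15d-PGJ2, 303.66, 304.38 and 322.07 FPKM with 15d-PGJ2-PC and 478.2, 469.99 and 533.85 FPKM in control cells. The sums stood apart in the same order, at 33.1% of control with 15d-PGJ2 and 62.8% with 15d-PGJ2-PC. The make-up of the sum differed as well. Slfn2 held 71.8% ± 1.75 of it with 15d-PGJ2, 67.2% ± 0.884 with 15d-PGJ2-PC and 59.5% ± 2.44 in control cells (SD, n = 3 each). Slfn5 held 7.59% with 15d-PGJ2, 13.4% with 15d-PGJ2-PC and 19.6% in control cells, and Slfn8 held 6.04%, 9.36% and 11.1% in the same groups. Slfn3 went the other way in share, with 6.11% in 15d-PGJ2 cells, 3.64% in 15d-PGJ2-PC cells and 2.90% in control cells, although its own level was lower with both compounds. The order by level in control cells was Slfn2, Slfn5, Slfn8, Slfn3, Slfn1, Slfn10-ps, Slfn9 and Slfn4 in all 3 libraries. Neighbours in that order were close at the lower end, with Slfn3 at 14.3 ± 1.04 FPKM and Slfn1 at 12.0 ± 2.93 FPKM, and Slfn10-ps at 8.36 ± 1.40 FPKM, Slfn9 at 7.59 ± 1.54 FPKM and Slfn4 at 6.81 ± 1.60 FPKM, differences within their spread. With 15d-PGJ2, Slfn8 and Slfn3 had nearly equal means (9.85 ± 0.695 and 9.96 ± 0.521 FPKM), and so had Slfn1 and Slfn9 at the bottom (1.49 ± 0.836 and 1.33 ± 0.358 FPKM), each pair differing by less than its spread over libraries.

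**Figure D3:**
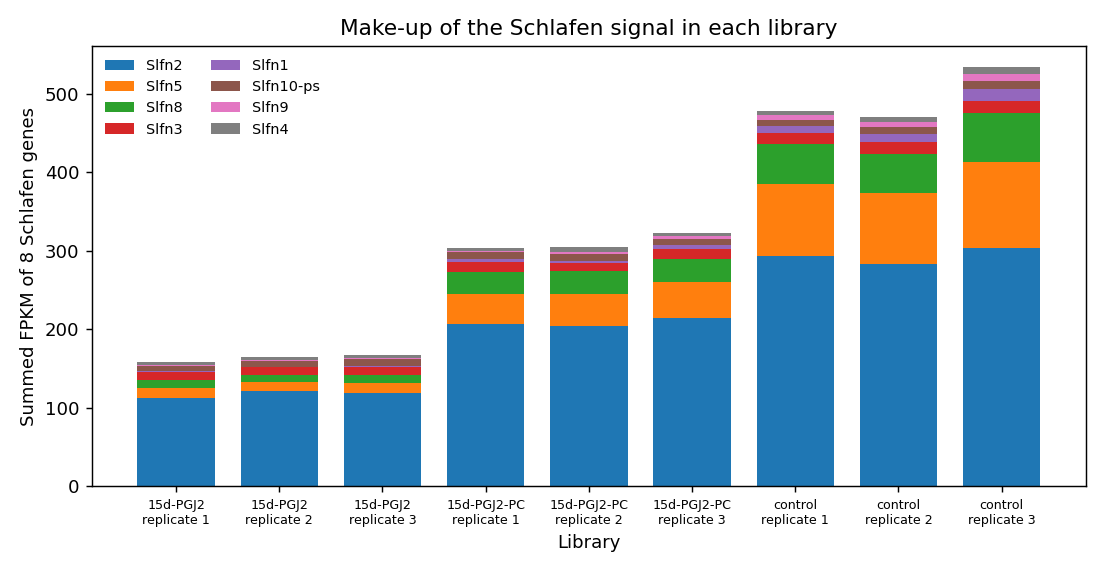
Summed FPKM of the 8 Schlafen genes in each of the 9 libraries, stacked by gene. The bars reach 157.83 to 167.72 FPKM with 15d-PGJ2, 303.66 to 322.07 FPKM with 15d-PGJ2-PC and 469.99 to 533.85 FPKM in control cells; on average Slfn2 takes 71.8% of the sum with 15d-PGJ2, 67.2% with 15d-PGJ2-PC and 59.5% in control cells, while Slfn5 takes 7.59%, 13.4% and 19.6%.

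One control library stood above the others for these genes. Control library 3 was the highest of the controls for 8 of 8 members and for 35 of 38 genes on the interferon-induced list, but for 36.9% of all genes tested. Its median deviation from the control mean on the log2 scale was 0.22 over the members and 0.17 over the interferon-induced genes, beside 0.00 over all genes. Without it, the family sums of the controls were 469.99 and 478.2 FPKM, still above all 6 treated libraries. Leaving it out ended the Slfn3 and Slfn4 calls for 15d-PGJ2-PC given above and no other call of a member. Library 3 of each treated group leaned the same way by less, and was highest for 4 of 8 members. Among interferon-induced genes it was highest for 16 of 38 with 15d-PGJ2 and 25 of 38 with 15d-PGJ2-PC, beside 31.0% and 35.1% of all genes. Median deviations of library 3 were 0.05 and 0.07 over the members and 0.02 and 0.05 over the interferon-induced genes.

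Other genes known to be induced by type I interferon were measured in the same libraries. A list of 38 type I interferon-induced genes held 36 that were lower with 15d-PGJ2 than in control cells (median log2 difference -1.59) and 36 that were lower with 15d-PGJ2-PC (median -0.77). The genes that did not pass were Isg20 and Ccl12 with 15d-PGJ2, and Isg20 and Oasl1 with 15d-PGJ2-PC. With 15d-PGJ2-PC, 34 of 38 were higher than with 15d-PGJ2 (median 0.85), where 12.3% of all genes tested were higher. Against control, 25.0% of all genes tested were lower with 15d-PGJ2 and 14.1% with 15d-PGJ2-PC. Ifit3, an interferon-induced antiviral RNA-binding protein with a near-identical copy in the genome, averaged 19.5 ± 1.00 FPKM with 15d-PGJ2, 99.4 ± 8.55 FPKM with 15d-PGJ2-PC and 341 ± 48.4 FPKM in control cells (SD, n = 3 each). Rtp4, an interferon-induced chaperone of membrane receptors, averaged 31.3 ± 1.98, 82.5 ± 1.67 and 136 ± 7.85 FPKM in 15d-PGJ2, 15d-PGJ2-PC and control cells. The list was chosen with these results known, so its counts are a description.

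Among 21 genes of interferon receptors, JAK-STAT signalling and IRF factors, 18 were lower with 15d-PGJ2 (median -0.69) and 18 with 15d-PGJ2-PC (median -0.39) than in control cells. Of all genes tested, 25.0% and 14.1% were lower in these comparisons. Between the compounds, 14 of the 21 were higher with 15d-PGJ2-PC than with 15d-PGJ2 (median 0.27), where 12.3% of all genes were. Stat2, a transcription factor of the type I interferon pathway, differed from control by -2.33 with 15d-PGJ2 and -1.10 with 15d-PGJ2-PC, and Irf9, which binds the ISRE, by -1.01 and -0.41. Usp18, a known brake on the type I receptor that interferon itself induces, differed by -2.81 and -1.26. Jak1, Jak2 and Irf3 did not pass with 15d-PGJ2. Of the interferon ligands, Ifnb1 and Ifng were listed at 0.24 FPKM or less in every library and were not tested. Their part in the Schlafen levels was not tested.

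**Figure D4:**
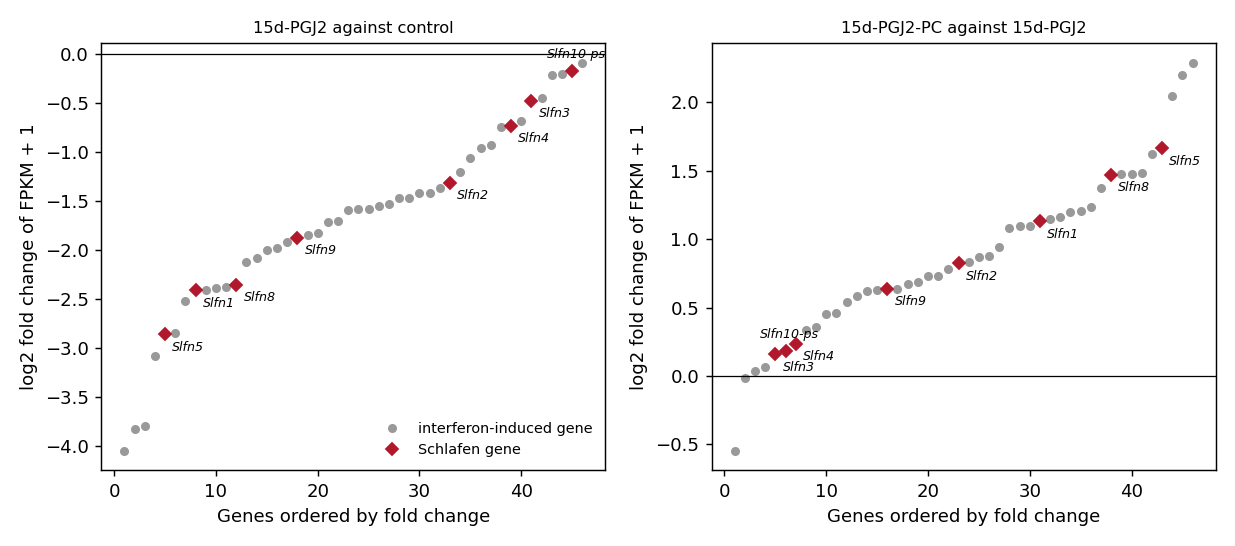
Log2 difference (FPKM + 1) of the 38 interferon-induced genes (grey points) and the 8 Schlafen genes (red diamonds), ordered by value, for 15d-PGJ2 against control (left) and 15d-PGJ2-PC against 15d-PGJ2 (right). The Schlafen genes spread over the range of the interferon-induced genes in both panels, with Slfn5 at -2.86 on the left and 1.66 on the right and Slfn10-ps near 0.

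For each member the 4 other genes with the most similar levels were listed, by Pearson's r of log2(FPKM + 1) over the 9 libraries. These r values describe likeness only, since all genes share the 3 groups and the same libraries. Slfn2 was most like Rtp4 (r = 0.998), Oas3 (0.997), Eif2ak2 (0.997) and Ifit3 (0.996), all on the interferon-induced list. The genes most like Slfn5 included Ifit2 (r = 0.9995), Parp14 (0.999) and Dhx58 (0.999), and Slfn8 was most like Oasl2 (0.999), Cd2ap (0.998), Gbp9 (0.998) and Samhd1 (0.998). The low members had other neighbours: Slfn1 was nearest to Il21r (0.993), Slfn3 to Dbnl (0.980), Slfn4 to Ythdc2 (0.973) and Slfn9 to Selt (0.993). Slfn10-ps had no gene above its r of 0.941 with Setdb2. Within the family, Slfn5 and Slfn8 were closest (r = 0.998), and Slfn10-ps had r values of 0.389 to 0.565 with the other members.

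Genes on both sides of the cluster, and 1 other gene inside its bounds, were measured as well. The cluster spans 344.386 kb, and 18 non-Schlafen genes within 200 kb of it were listed, 11 of them tested. With 15d-PGJ2, 5 of the 11 were higher than in control cells, where 22.2% of all genes tested were higher, and 1 was lower, where 25.0% of all genes were (median log2 difference 0.27). With 15d-PGJ2-PC, 4 were higher, where 13.8% of all genes were, and 0 lower, where 14.1% of all genes were (median 0.20). Without control library 1, the first count became 3 higher and 0 lower. Counted as higher with both compounds was AA465934, a gene of 383 bases near the floor. It had 1.01 to 1.02 FPKM with 15d-PGJ2, 1.01 to 2.02 FPKM with 15d-PGJ2-PC and 0 to 0.5 FPKM in control cells. This gene passed the filter only through the treated libraries, so its direction was fixed in advance. Rffl, a ubiquitin ligase gene, averaged 5.35 FPKM with 15d-PGJ2, 4.54 FPKM with 15d-PGJ2-PC and 2.57 FPKM in control cells, with log2 differences from control of 0.83 (SE 0.10) and 0.63 (SE 0.10). Nle1, a ribosome assembly gene, averaged 5.82, 5.19 and 3.63 FPKM in 15d-PGJ2, 15d-PGJ2-PC and control cells. Ap2b1, a clathrin adaptor subunit, differed from control by -0.02 and 0.05. The single lower gene was AI662270, the gene inside the bounds of the cluster. It averaged 41.8 FPKM with 15d-PGJ2, 44.1 FPKM with 15d-PGJ2-PC and 47.4 FPKM in control cells. Its log2 difference of -0.18 with 15d-PGJ2 lost its call after quantile normalization (limma adjusted p = 0.193), without 15d-PGJ2 library 2 (0.0673) or without control library 1 (0.0805). Between the compounds 0 of 11 passed in limma, with 1 at an unadjusted p under 0.05.

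**Figure D5:**
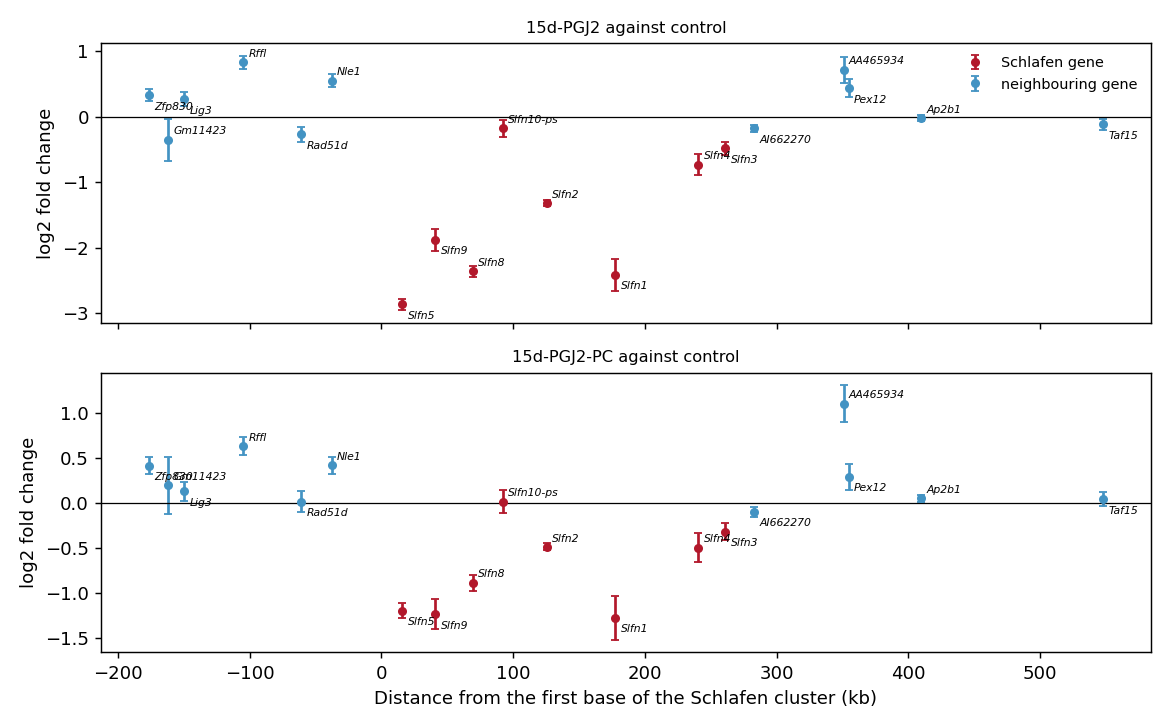
Log2 difference against control (error bars show the SE) of Schlafen genes and of other tested genes within 200 kb, by distance in kb from the first base of the cluster, with 15d-PGJ2 and with 15d-PGJ2-PC. The Schlafen genes run down to -2.86, while the neighbours lie between -0.35 and 0.83 with 15d-PGJ2 and between -0.10 and 1.11 with 15d-PGJ2-PC. The value of 1.11 belongs to AA465934, a gene near the floor.

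The 9 libraries had similar size, about 5.36 to 5.49 M reads each by the steps between low values. Markers of other cell types differed between groups beside the Schlafen genes. The summed level of 10 macrophage markers was 4997 to 5365 FPKM with 15d-PGJ2, 5863 to 6038 FPKM with 15d-PGJ2-PC and 6571 to 6772 FPKM in controls. All 10 were lower with 15d-PGJ2 and 7 of 10 with 15d-PGJ2-PC than in controls. Between the compounds, 10 of 10 were higher with 15d-PGJ2-PC than with 15d-PGJ2, where 12.3% of all genes were. Over all genes tested, 25.0% were lower and 22.2% higher with 15d-PGJ2, and 14.1% lower and 13.8% higher with 15d-PGJ2-PC. Of 5 listed T cell markers, cells in which Slfn1 and Slfn2 are best known, 2 were tested and 0 passed in limma against control (0 at an unadjusted p under 0.05), with sums of 6.06 to 6.39, 5.90 to 7.36 and 5.71 to 7.41 FPKM in 15d-PGJ2, 15d-PGJ2-PC and control libraries. Sums of 5 B cell markers were 14.0 to 17.7, 24.6 to 29.1 and 39.05 to 46.75 FPKM in the same groups, nearly all from Cd79b, which was lower with both compounds, while Ms4a1 and Pax5 averaged 0.06 FPKM or less in each group. Of 8 neutrophil markers, 4 tested, 3 were lower and 1 higher with 15d-PGJ2 and 1 lower and 1 higher with 15d-PGJ2-PC than in controls, with sums of 13.5 to 16.6, 20.3 to 26.2 and 28.0 to 31.6 FPKM in the same order of groups. Of 6 dendritic cell markers, 2 tested, 1 was lower with each compound, with sums of 20.5 to 23.6, 24.3 to 27.6 and 31.7 to 32.7 FPKM. All tested stromal (4), erythroid (3) and keratinocyte (6) markers were lower with each compound than in controls. For erythroid markers the filter fixed this direction, since even their sums stayed under 1 FPKM in every treated library. Of 7 keratinocyte markers, 5 were at 0 in each 15d-PGJ2 library and 6 in each 15d-PGJ2-PC library. Markers at 0 with both compounds could pass the filter only through the controls, which fixed their direction too. Stromal markers summed to 6.76 to 8.05, 6.25 to 7.15 and 30.8 to 34.1 FPKM, erythroid markers to 0.33 to 0.76, 0 to 0.91 and 19.6 to 31.8 FPKM, and keratinocyte markers to 0.70 to 1.03, 0.51 to 1.37 and 22.9 to 27.3 FPKM. All 3 lists are given for 15d-PGJ2, then 15d-PGJ2-PC, then control libraries. Sums of natural killer cell markers were 0.13 FPKM or less. The part of these cells in the Schlafen levels was not tested.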

How the data were processed

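RNA was measured in 9 libraries, 3 per group. The authors deposited 1 table of FPKM values with 18049 genes; build mm10 and the aligner BWA are named per the submitters' processing notes, and the version of BWA, the counting tool and its strand setting are among what is not given in the sources used here. A spreadsheet had turned 23 symbols into dates, restored by Entrez number. Values were used as deposited. Genes at 1 FPKM or more in at least 3 of 9 libraries (11309) were moved to log2(FPKM + 1), which understates fold changes of low genes, and compared with limma's moderated test, its prior variance following an intensity trend (limma 3.58.1, R 4.3.3), on all 9 libraries, 2-sided, with Benjamini-Hochberg adjustment within each contrast and a threshold of 0.05. The test was checked on simulated data.

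Depth was estimated from the steps between low values of 1061 genes under 1500 bases (tolerance 0.08 of a read; 42.8% to 46.4% of values came out whole, against 16% by chance), too few for a count test. Read numbers are therefore approximate. Gene coordinates (RefSeq, 1-based) were found by Entrez number for 18000 genes, on GRCm38, the assembly mm10 names. Transcript lengths, transcript sequences, strands and exon overlaps come from GENCODE. Promoters come from RefSeq (GRCm38.p6). Other tools were Python 3.11.15, pandas 2.3.3, numpy 2.4.6, Biopython 1.88 and matplotlib 3.10.9.

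The members, gene lists and tests were chosen with earlier results of these data known. Named beside the members were genes with the smallest p of each list (up to 4 against control), all genes within 200 kb, and the 4 genes most like each member. Some genes that this rule takes were left out of the text. List members that did not pass were named after their values were seen. In all, 18 alternatives were tried: pseudocounts of 0.1 and 0.5, no filter, a filter of 5 FPKM, quantile normalization, median ratio scaling, no trend, the 6 libraries of a contrast only, a replicate block, and leaving out each library.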

Additional observations from a re-analysis of the deposited data

How the results depend on the processing

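Of the 8 Schlafen genes, the number called was 7 under every alternative for 15d-PGJ2 against control, 5 to 7 for 15d-PGJ2-PC against control and 4 to 5 for 15d-PGJ2-PC against 15d-PGJ2. Single calls were lost for Slfn3, Slfn4 and Slfn9 in the settings given beside them, 17 losses in all, and no member changed direction where it was called. Interferon-induced genes called ran between 36 and 36, 34 and 37, and 31 and 34 in the 3 comparisons. The number of genes called over the whole table was 5338, 3147 and 2335 and stayed within 1.5 times, at 4606 to 5544, 2530 to 3152 and 1787 to 2375; leaving out 1 library gave 4717 to 5293, 2530 to 3152 and 1787 to 2375. Over all genes tested, deviations of same-numbered libraries had r of -0.04 to 0.05 over 9 pairs. For the members and the interferon-induced genes, library 3 had the highest median deviation in each group. Whether the replicate numbers pair the libraries is not stated. With the replicate number as a block, 5272, 3041 and 2215 genes, 7, 7 and 5 members and 36, 37 and 34 interferon-induced genes were called. The low read numbers of Slfn1, Slfn4 and Slfn9 limit how finely their levels can be compared.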

Other observations

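The growth control for which Schlafen genes are known led to a list of 22 cell cycle genes, chosen with the results known. With 15d-PGJ2, 9 of 22 were lower than in control cells, where 25.0% of all genes tested were lower (median log2 difference -0.34, with 6 to 10 genes over the alternatives, the low end near the all-gene share). With 15d-PGJ2-PC, 6 of 22 were lower, where 14.1% of all genes were (median -0.19, with 4 to 7 genes over the alternatives, the low end again near the all-gene share). Ccnd1, the cyclin D1 gene that carries cells out of the resting state, averaged 2.40 ± 0.275 FPKM with 15d-PGJ2, 3.24 ± 0.435 FPKM with 15d-PGJ2-PC and 8.05 ± 1.07 FPKM in control cells (SD, n = 3 each). Ccnd3, another D-type cyclin gene, averaged 21.1 ± 0.955 FPKM, 22.5 ± 1.66 FPKM and 36.9 ± 4.10 FPKM in the same groups. Stromal, erythroid and keratinocyte markers were also lower with both compounds, as given above. The part of such cells in the levels of the cell cycle genes was not tested. Between the compounds 0 of 22 passed in limma, with 5 at an unadjusted p under 0.05. Over all genes tested, 12.3% were higher with 15d-PGJ2-PC than with 15d-PGJ2.

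Slfn2 is known to shield tRNA from cleavage by angiogenin, and 8 genes of tRNA cleavage and protection were listed for that reason. With 15d-PGJ2, 0 of 8 passed in limma against control, with 1 at an unadjusted p under 0.05, and 1 of 8 passed in 3 of the 18 alternatives. Of all genes tested, 25.0% were lower and 22.2% higher in that comparison. With 15d-PGJ2-PC, 1 of 8 was higher than in control cells, where 13.8% of all genes were. Between the compounds, 1 of 8 was higher with 15d-PGJ2-PC, where 12.3% of all genes were. Ang, the angiogenin gene, averaged 1.48 FPKM with 15d-PGJ2, 2.42 FPKM with 15d-PGJ2-PC and 2.47 FPKM in control cells and did not pass. Elac2, a tRNA processing nuclease gene, was higher with 15d-PGJ2-PC than in control cells by 0.31 on the log2 scale (limma adjusted p = 0.0473), a call lost in 13 of 18 alternatives, with an adjusted p of up to 0.138. Rnh1, the gene of an angiogenin inhibitor, was higher with 15d-PGJ2-PC than with 15d-PGJ2 by 0.13 on the log2 scale (limma adjusted p = 0.0428), a call lost in 9 of 18 alternatives, with an adjusted p between 0.0267 and 0.139.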
